A study of Mus musculus with 6 samples.

Results

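Osteocalcins, matrix Gla protein, SPARC and periostin are secreted non-collagenous proteins of mineralized and collagen-rich matrix, and their genes Bglap, Bglap2, Bglap3, Mgp, Sparc and Postn were followed here by name. The 6 genes were looked up among the 53342 genes measured, and all 6 passed the filter on low counts. RNA sequencing had been performed on dental pulp, the connective tissue inside the tooth, from 3 WT mice and 3 Mmp13-/- mice. Both groups were 3 months old and on the C57BL/6 strain, and the study's methods describe the Mmp13-/- mice as homozygous for Mmp13 deficiency and the animals as male. Mmp13 encodes collagenase-3, which cleaves fibrillar collagen, and the study asked how its loss alters the expression of mineralization genes. The libraries were independent biological samples, named replicates 2, 4 and 5 for WT and replicates 1, 2 and 6 for Mmp13-/-. The growth notes name molars for all 6 samples, the titles name them for WT alone, and the methods name incisors, so it is not settled that both genotypes gave the same type of tooth.

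Osteocalcin and matrix Gla protein belong to the Gla proteins, in which glutamate residues are carboxylated in a vitamin K-dependent reaction so that they bind calcium. Osteocalcin is made by osteoblasts and odontoblasts and binds hydroxyapatite, whereas matrix Gla protein is an inhibitor of calcification in soft tissue and cartilage. SPARC, also called osteonectin, binds collagen and calcium. Periostin is a fasciclin-domain protein of the periodontal ligament and periosteum that binds collagen and assists its cross-linking.

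Libraries held between 28442936 and 29980236 estimated counts in WT and between 21561420 and 26547121 in Mmp13-/-. Mmp13 itself was detected at 827 to 1139 estimated counts in WT and 10.2 to 40.4 in Mmp13-/-, with a log2 fold change of -4.96 (adjusted p = 7.67e-05, edgeR). Odorant and vomeronasal receptor genes, which serve sensory neurons of the nose, summed to 17.7 to 20.5 CPM (counts brought to one library size) in WT and to 299, 346 and 1164 CPM in Mmp13-/- replicates 1, 2 and 6. Mmp13-/- replicate 6 therefore stood apart, and each genotype difference of the 6 genes is also given without it. Reads at the rate of those receptor genes would account for at most 0.0577% of the counts of Bglap, Bglap2, Sparc or Postn in any library, 0.739% of those of Mgp and 6.38% of those of Bglap3. The rate was taken per kilobase, with Bglap3 set at 2051 bases, the length of its longest coding transcript. Skeletal muscle genes were abundant in tissue labelled pulp, with 7 markers summing to 17019 to 20933 CPM per kilobase in WT and 3539 to 8214 in Mmp13-/-. Dspp, the odontoblast marker with the highest level, was present in every library at 14196 normalized counts or more.

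The 3 osteocalcin genes lie close together on the minus strand of chromosome 3, and their coding sequences are shown because their similarity limits what a read count can say about each. Bglap covers chr3:88383501-88384464, Bglap2 chr3:88377736-88378699 and Bglap3 chr3:88368616-88372743 in GRCm38, and no other annotated gene overlaps them. Each coding sequence of 288 bases is given from start to stop codon, from the GENCODE M21 transcripts. Capitals mark bases that differ from Bglap2 in Bglap, and from Bglap in Bglap2 and Bglap3.
Bglap: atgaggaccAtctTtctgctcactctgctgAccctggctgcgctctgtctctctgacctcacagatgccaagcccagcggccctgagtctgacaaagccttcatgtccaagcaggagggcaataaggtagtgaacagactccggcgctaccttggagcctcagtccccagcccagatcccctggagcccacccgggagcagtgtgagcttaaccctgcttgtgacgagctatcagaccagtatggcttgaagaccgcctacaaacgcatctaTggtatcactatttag
Bglap2: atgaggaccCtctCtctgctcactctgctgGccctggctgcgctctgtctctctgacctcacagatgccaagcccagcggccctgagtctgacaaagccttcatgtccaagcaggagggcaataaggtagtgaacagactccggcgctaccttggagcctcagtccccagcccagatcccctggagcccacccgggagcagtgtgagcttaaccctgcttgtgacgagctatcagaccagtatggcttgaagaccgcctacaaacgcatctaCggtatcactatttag
Bglap3: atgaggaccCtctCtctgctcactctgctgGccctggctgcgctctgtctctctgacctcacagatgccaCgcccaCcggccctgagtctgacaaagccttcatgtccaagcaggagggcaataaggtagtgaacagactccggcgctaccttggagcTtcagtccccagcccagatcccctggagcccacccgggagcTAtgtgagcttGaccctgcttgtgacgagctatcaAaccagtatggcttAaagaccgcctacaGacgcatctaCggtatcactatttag

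Bglap and Bglap2 differed at 4 of the 288 coding bases, which are A10C, T14C, A31G and T273C, counted from 1 at the first base of the start codon with the base of Bglap written first. Bglap3 shared those 4 differences from Bglap and had 13 in all, the further ones including A71C, G77C, C159T and A211G. Coding identity was 98.6% between Bglap and Bglap2, 95.5% between Bglap and Bglap3 and 96.9% between Bglap2 and Bglap3. Over the whole transcript of Bglap, 66.1% of windows of 75 bases and 56.3% of windows of 100 bases occurred letter for letter in Bglap2. For Bglap3 the shares were 3.01% and 0 of 341 windows. The study's methods name paired reads longer than these windows, and windows of that length were not counted. The longest run that Bglap shared was 241 bases with Bglap2 and 81 bases with Bglap3. Counts of Bglap and Bglap2 are therefore uncertain one by one, since the way the authors' software divided such reads is not given in the sources used here, and their sum is also reported.

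Per kilobase of transcript, Sparc and Bglap were the most abundant of the 6 genes in WT pulp. Sparc stood at 1538 ± 21.7 CPM per kilobase (SD, n = 3) at rank 24 of the 24492 tested genes with a known length. Bglap stood at 1410 ± 338 at rank 28, and its samples overlapped those of Sparc. Bglap2 followed at 663 ± 163, Postn at 169 ± 18.5, Mgp at 20.8 ± 0.263 and Bglap3 at 5.06 ± 2.95, and none of these overlapped its neighbour in the order. The length used for Bglap3 was that of its longest coding transcript, 2051 bases, whereas the transcript that gave its sequence above has 717 bases. Its level and its separation from Mgp depend on that choice. Before division by length, Bglap3 at 5.40 to 17.1 CPM overlapped Mgp at 12.7 to 13.0 CPM in WT.

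In Mmp13-/- pulp Postn lay within the range of the most abundant genes. Sparc at 1256 ± 222, Bglap at 1236 ± 172 and Postn at 1104 ± 211 CPM per kilobase overlapped one another (SD, n = 3). Postn stood at rank 37 against 172 in WT, Sparc at rank 31 and Bglap at rank 33. Bglap2 stood at 593 ± 78.0, Mgp at 44.4 ± 11.0 with a rank of 700 against 2360 in WT, and Bglap3 at 4.18 ± 1.91.

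Of the 6 genes, Postn and Mgp were higher in Mmp13-/- pulp, and Sparc and the 3 osteocalcin genes did not pass the test. The 2 called genes changed over 2-fold at an adjusted p under 0.05. At that adjusted p and any fold, 51.6% of all 24534 tested genes were called, 27.3% higher and 24.3% lower in Mmp13-/-. By the stricter rule 20.4% were called over 2-fold higher, 9.68% over 2-fold lower and 30.1% in either direction. Of the genes called over 2-fold, 67.8% were higher in Mmp13-/-, a share of 81.4% with upper-quartile factors, 77.2% with total counts and 86.8% with the GC correction described below. Genotypes did not overlap for 3 of the 6 genes, namely Postn, Mgp and Sparc, where 60.9% of all tested genes did not overlap. The median log2 fold change of all tested genes was 0.10. Fewer cells of a type and less RNA in each cell cannot be told apart in these bulk libraries.

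**Figure D1:**
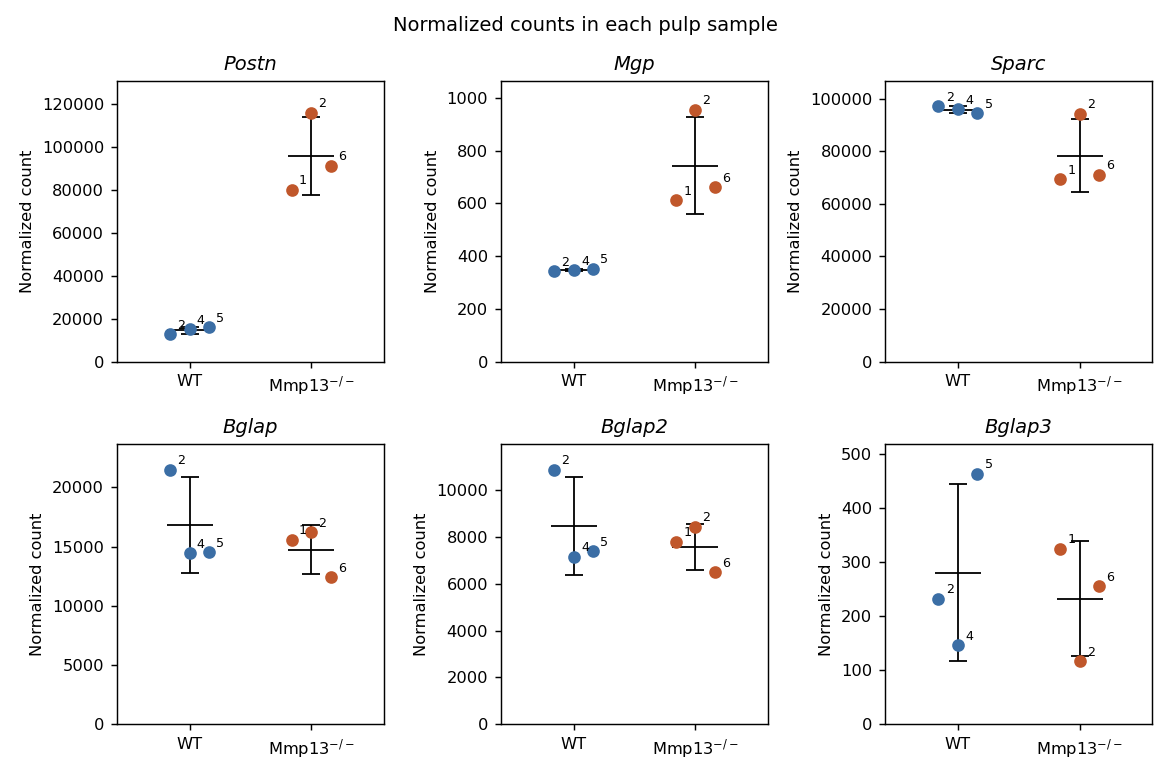
Normalized counts (y axis, linear, from 0) of each gene in the 3 WT samples (blue) and the 3 Mmp13-/- samples (orange), with replicate numbers beside the points, and bars for the mean and SD. The Mmp13-/- samples of Postn lie between 80271 and 116073, all above the WT samples at 12879 to 16021, and those of Mgp also lie above WT, while the points of the 3 osteocalcin genes overlap.

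Postn, which encodes periostin, lies at chr3:54361109-54391037 on the plus strand and has 22 exons in its longest coding transcript. Normalized counts, scaled to the mean library, were 12879, 15068 and 16021 in WT replicates 2, 4 and 5. In Mmp13-/- replicates 1, 2 and 6 they were 80271, 116073 and 91355. Every Mmp13-/- sample lay far above every WT sample, and replicate 2 was the highest. The means were 14656 ± 1611 and 95899 ± 18329 (SD, n = 3 each), a log2 fold change of 2.71 with an SE of 0.25 (adjusted p = 7.86e-05, edgeR quasi-likelihood test with Benjamini-Hochberg adjustment). On the linear scale Postn was 6.54-fold higher, with a 95% interval of 4.42-fold to 9.69-fold. Its log2 fold change was higher than those of 93.0% of tested genes and was 2.74 without Mmp13-/- replicate 6. Postn has a low GC content, 44.1% against a median of 50.4% for tested protein-coding genes, and its log2 fold change was 2.46 with a GC correction, in which the counts of each sample were offset by a smooth function of transcript GC content.

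Sparc, which encodes osteonectin, lies at chr11:55394500-55423183 on the minus strand, with 10 exons. WT replicates 2, 4 and 5 held 97083, 96060 and 94406 normalized counts. Mmp13-/- replicates 1, 2 and 6 held 69497, 94242 and 71067. All 3 Mmp13-/- samples lay below the WT samples, but replicate 2 was below the lowest WT sample by less than the WT samples differed from one another. The means of 95850 ± 1351 and 78269 ± 13856 (SD, n = 3 each) gave a log2 fold change of -0.29 with an SE of 0.24, which did not pass (adjusted p = 0.339, edgeR with Benjamini-Hochberg adjustment). The 95% interval ran from a fold of 0.561 to 1.19, so a change of 2-fold in either direction lay outside it. Without replicate 6 the log2 fold change was -0.23, and with the GC correction its sign turned, to 0.28 (adjusted p = 0.219, edgeR).

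Within a library, Postn and Sparc counts can be set against each other without any scaling between libraries. For every 100 estimated counts of Sparc there were 13.3, 15.7 and 17.0 counts of Postn in the WT replicates. In Mmp13-/- there were 116, 123 and 129, so that the mean ratios were 15.3 ± 1.88 and 122 ± 6.55 (SD, n = 3 each). Mgp per 100 Sparc amounted to 0.353, 0.361 and 0.373 counts in WT and 0.881, 1.01 and 0.932 in Mmp13-/-, 2.60 times the WT ratio. Neither ratio overlapped between genotypes. Bglap per 100 Sparc was 22.1, 15.1 and 15.4 in WT and 22.4, 17.2 and 17.4 in Mmp13-/-, and these overlapped. With 3 samples against 3 an exact permutation test cannot give a p below 0.1, so the ratios are given without a test. They were also not corrected for GC content, which is 44.1% in Postn, 51.4% in Mgp and 52.5% in Sparc. With the GC correction described above, the log2 fold changes were 2.46 for Postn and 0.28 for Sparc.

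**Figure D2:**
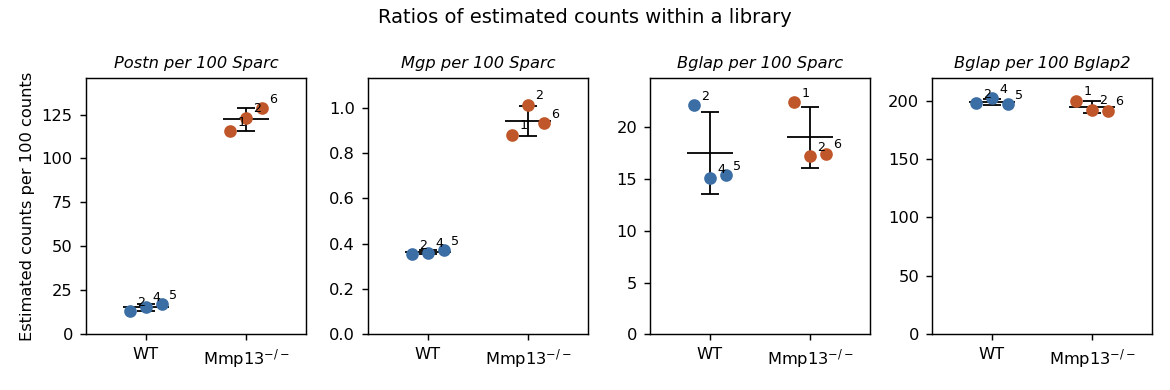
Estimated counts of one gene per 100 estimated counts of another in the same library (y axis, linear, from 0), for the 3 WT samples (blue) and 3 Mmp13-/- samples (orange), with replicate numbers and bars for the mean and SD. Postn per 100 Sparc is 13.3 to 17.0 in WT and 116 to 129 in Mmp13-/-, whereas Bglap per 100 Bglap2 stays between 191 and 202 in all samples.

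The fibrillar collagens that SPARC and periostin bind were lower in Mmp13-/- pulp. All 5 collagen genes on the list fell over 2-fold, with a median log2 fold change of -1.58 beside 0.10 for all tested genes. Of all tested genes, 9.68% fell over 2-fold. They were Col1a1 and Col1a2, the chains of type I collagen, with log2 fold changes of -2.16 and -1.26, Col3a1 of type III collagen with -1.58, and Col5a1 and Col5a2 of type V collagen with -1.66 and -1.21. With the GC correction 4 of the 5 fell, all but Col1a2, and the median was -0.88. Only Col1a1, at -1.08, stayed over 2-fold there. Against Col1a1, the collagen with the highest level, each of the main matrix genes took a larger count in Mmp13-/-. Sparc stood at 8.56, 8.40 and 9.84 counts per 100 of Col1a1 in WT and at 32.4, 34.1 and 30.6 in Mmp13-/-. Bglap per 100 Col1a1 was 1.89, 1.26 and 1.51 in WT and 7.26, 5.88 and 5.34 in Mmp13-/-, with no overlap in either ratio. The Mmp13-/- ratios to Col1a1 were 28.8 times WT for Postn, 9.43 times for Mgp, 3.62 times for Sparc and 3.96 times for Bglap. These ratios were not corrected for GC content, which is 58.9% in Col1a1 and 44.1% in Postn.

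Relatives and binding partners of periostin went in both directions. Of 12 genes tested, 2 rose, 3 fell and 7 did not pass, with a median log2 fold change of -0.07. Among all tested genes 51.6% were called. Tnc, which encodes the matrix protein tenascin-C, had the highest level and gave a log2 fold change of -0.21, and Fn1, the fibronectin gene, gave -0.42, and neither passed (adjusted p = 0.442 and 0.0830, edgeR). Itgb5, which encodes an integrin chain, fell with a log2 fold change of -0.96 (adjusted p = 0.00294, edgeR), and its value with the GC correction was -0.0053. After that correction 3 of the 12 genes rose and none fell, and Stab1, named after its values were seen, turned from -0.59 to 0.38 and passed in both fits.

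Most relatives of SPARC did not pass the test. Of 7 genes, Spock3 rose, Spock2 fell and 5 did not pass, with a median log2 fold change of 0.04, where 51.6% of all tested genes were called. Spock2 was at 1850 ± 167 normalized counts in WT and 840 ± 74.9 in Mmp13-/- (SD, n = 3 each), a log2 fold change of -1.14 that became -0.32 with the GC correction. Spock3 rested on few reads, with 4.68, 13.0 and 5.93 normalized counts in WT and 12.9, 29.9 and 87.9 in Mmp13-/-, and its genotypes overlapped. Spock3 passed the filter on low counts only through the Mmp13-/- samples, so its rise carries little weight. It was highest in Mmp13-/- replicate 6, the library with the most reads on sensory receptor genes. Spock2 and Spock3 were named after their values were seen. Fstl1, which encodes a follistatin-like relative of SPARC, had the highest level and a log2 fold change of 0.47, and Sparcl1, the closest relative by name, had 0.14, and neither passed (adjusted p = 0.0716 and 0.514, edgeR). With the GC correction these were the genes that rose, with 0.66 and 0.33 (adjusted p = 0.0155 and 0.0361, edgeR), while Spock2 and Spock3 did not pass and none of the 7 genes fell.

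Mgp, the gene of matrix Gla protein, lies at chr6:136872435-136875823 on the minus strand, with 4 exons. WT replicates 2, 4 and 5 held 343, 347 and 352 normalized counts of Mgp. Mmp13-/- replicates 1, 2 and 6 held 612, 954 and 662. WT samples were nearly equal, and all Mmp13-/- samples lay above them with replicate 2 the highest, as for Postn. The means were 347 ± 4.41 and 743 ± 185 (SD, n = 3 each), a log2 fold change of 1.10 with an SE of 0.18 (adjusted p = 0.000926, edgeR quasi-likelihood test with Benjamini-Hochberg adjustment). Mgp was 2.14-fold higher, with a 95% interval of 1.62-fold to 2.83-fold, so that a change under 2-fold lay within it. Without Mmp13-/- replicate 2 the log2 fold change was 0.82, under 2-fold, at an adjusted p of 0.00282 (edgeR), and without replicate 6 it was 1.17. With the GC correction it was 1.58.

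Bglap, the osteocalcin gene with the highest level per kilobase, held 21472, 14457 and 14519 normalized counts in WT replicates 2, 4 and 5. It held 15586, 16222 and 12397 in Mmp13-/- replicates 1, 2 and 6. WT replicate 2 was the highest of the 6 samples, and the other WT samples lay within the range of Mmp13-/-. The means of 16816 ± 4032 and 14735 ± 2050 (SD, n = 3 each) gave a log2 fold change of -0.19 with a 95% interval of -0.69 to 0.31 (adjusted p = 0.501, edgeR with Benjamini-Hochberg adjustment).

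Bglap2 followed the same samples with 10857, 7152 and 7382 normalized counts in WT and 7790, 8436 and 6482 in Mmp13-/-. Again WT replicate 2 was the highest, and the genotypes overlapped. Its log2 fold change was -0.16, with a 95% interval of -0.63 to 0.31 (adjusted p = 0.547, edgeR with Benjamini-Hochberg adjustment). Without Mmp13-/- replicate 6 the values were -0.08 for Bglap and -0.06 for Bglap2.

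Bglap3, the osteocalcin-related gene of the cluster, held 233, 146 and 464 normalized counts in WT and 325, 117 and 256 in Mmp13-/-. The highest and the second lowest sample were both WT, so the spread within a genotype was larger than the difference between them. The log2 fold change was -0.27 with a 95% interval of -1.24 to 0.69 (adjusted p = 0.623, edgeR with Benjamini-Hochberg adjustment). This interval is the widest of the 6 genes and does not leave out a 2-fold decrease. Leaving out WT replicate 5 turned the sign, to 0.22, and without Mmp13-/- replicate 6 the value was -0.33.

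Summed over the 3 genes, osteocalcin stood at 32562, 21756 and 22365 normalized counts in WT and 23700, 24775 and 19134 in Mmp13-/-. WT replicate 2 again lay above the rest and the genotypes overlapped. The means were 25561 ± 6071 and 22536 ± 2995 (SD, n = 3 each), with a log2 fold change of -0.18 and an SE of 0.23 (adjusted p = 0.535, edgeR with Benjamini-Hochberg adjustment). On the linear scale the 95% interval was a fold of 0.618 to 1.26, which leaves out a 2-fold change in either direction. Both Bglap and Bglap2 have GC contents above the median, at 55.7% and 56.3%, and with the GC correction their log2 fold changes were 0.63 and 0.71 and the sum gave 0.65 (adjusted p = 0.0369, 0.0243 and 0.0350, edgeR). The correction raised the median of all tested genes to 0.31, and relative to that median Bglap and Bglap2 were at 0.32 and 0.39. Without WT replicate 2 the uncorrected summed log2 fold change was -0.04, and without Mmp13-/- replicate 6 it was -0.07.

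Bglap and Bglap2 kept a narrow range of proportions in the 6 libraries. Bglap took 66.4%, 66.9% and 66.3% of the summed counts of both genes in WT and 66.7%, 65.8% and 65.7% in Mmp13-/-. Genotypes overlapped, with a mean difference of -0.495 percentage points, for which an exact two-sided permutation test over samples gave p = 0.3 but could not have gone below 0.1 in a design of this size. Shared reads were divided by a rule that is not given and may itself hold the share steady. The test therefore cannot show whether the genes keep a proportion. Counts of Bglap3 per 100 of Bglap varied more, from 1.01 to 3.20 in WT and from 0.719 to 2.09 in Mmp13-/-.

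**Figure D3:**
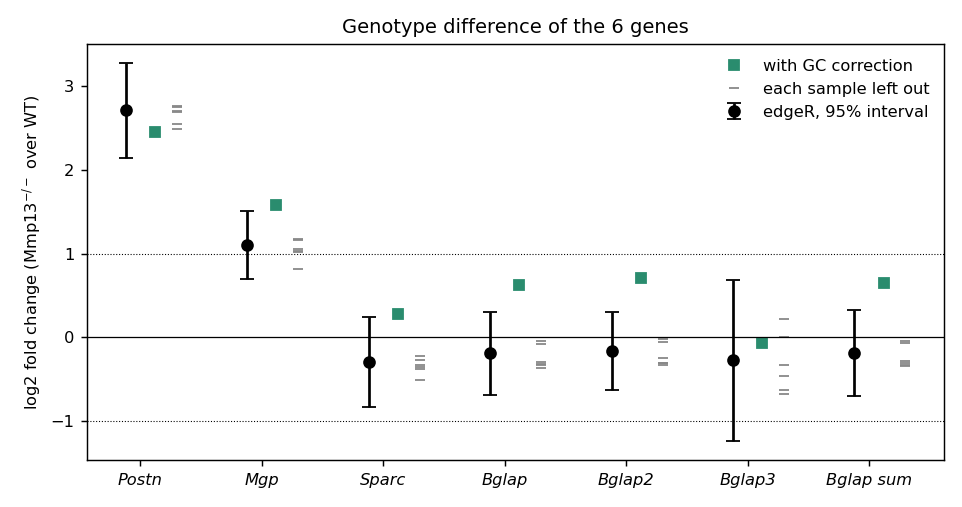
Log2 fold change of Mmp13-/- over WT (y axis) for the 6 genes and for the summed osteocalcin genes (Bglap sum), from edgeR with its 95% interval (black), with the GC correction (green squares) and with each of the 6 samples left out in turn (grey dashes). Dotted lines mark a 2-fold change. Postn and Mgp stay above 0 throughout, while the GC correction moves Sparc, Bglap, Bglap2 and the sum from below 0 to above it.

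Enzymes that equip Gla proteins for calcium binding did not move as one group. Of 6 genes of the vitamin K cycle and gamma-carboxylation, 1 rose and 2 fell, with a median log2 fold change of 0.21, and with the GC correction 2 rose and none fell. Without that correction, 51.6% of all tested genes were called. Ggcx, the carboxylase itself, was at 1298 ± 77.0 normalized counts in WT and 944 ± 129 in Mmp13-/- (SD, n = 3 each), a log2 fold change of -0.46 (adjusted p = 0.0225, edgeR) that was -0.0023 with the GC correction. Aifm2, which reduces vitamin K, fell with a log2 fold change of -0.68, which was 0.02 with the GC correction and did not pass there. Calu, whose product calumenin inhibits the carboxylation system, rose with a log2 fold change of 1.49 (adjusted p = 0.000346, edgeR), and rose likewise with the GC correction. Vkorc1 and Vkorc1l1, the vitamin K epoxide reductases, and Nqo1 gave 0.26, 0.26 and 0.15 and did not pass. With the GC correction Vkorc1 rose with a log2 fold change of 0.90 (adjusted p = 0.0447, edgeR), while Vkorc1l1 and Nqo1 did not pass.

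Among the other Gla proteins, 7 of the 11 tested genes rose and 2 fell, with a median log2 fold change of 0.99. Of all tested genes, 27.3% were called higher and 24.3% lower. Gas6, a ligand of TAM receptors and the most abundant of them, fell from 6110 ± 668 to 2933 ± 198 normalized counts (SD, n = 3 each), a log2 fold change of -1.06 that became -0.14 with the GC correction. Pros1, the gene of the anticoagulant protein S, rose with a log2 fold change of 0.89, and Prrg2, a transmembrane Gla protein gene, fell with -0.82, a sign that turned to 0.16 with the GC correction. Of those that rose, F7 and F2 held at most 70.6 normalized counts in any library. So did Ucma, which had 0 counts in every WT sample. All 3 were highest in Mmp13-/- replicate 6, the library with the most reads on sensory receptor genes. These 3 passed the filter on low counts only through the Mmp13-/- samples, where they are high. Their rise therefore adds no weight to the count of 7 or to the median. With at least 10 counts required in every sample, 4 of 8 tested genes rose and 2 fell, with a median of 0.55. With the rate of those receptor genes subtracted, 5 of 10 tested genes on this list rose and 2 fell. After the GC correction 6 of the 11 rose and 1 fell, Prrg1, a transmembrane Gla protein gene whose log2 fold change turned from 1.34 to -1.33 (adjusted p = 0.000769, edgeR). F7, F2, Ucma and Prrg1 were named after their values were seen.

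Of 8 genes of transcription factors that act on osteocalcin genes, 4 fell and 4 did not pass, with a median log2 fold change of -0.54. Among all tested genes 24.3% were called lower. Sp7, the osteoblast factor osterix, gave -0.75, and the homeobox genes Dlx3, Dlx5 and Msx2 gave -0.98, -0.66 and -0.64, and these 4 fell, although Dlx5 was at 0.10 with the GC correction. Runx2, the master regulator of osteoblasts, was at 3813, 4602 and 4265 normalized counts in WT and 3005, 3991 and 2337 in Mmp13-/-, and its log2 fold change of -0.44 did not pass (adjusted p = 0.0930, edgeR). Atf4, Cbfb and Vdr, the vitamin D receptor gene, ranged from -0.33 to -0.22 and did not pass. With the GC correction Cbfb and Msx2 fell, Atf4 rose and the other 5 did not pass.

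Receptors proposed for circulating osteocalcin had few reads. Gprc6a had 0 counts in every WT sample and did not pass the filter. Gpr158 had 1.87, 1.86 and 1.98 normalized counts in WT and 12.9, 19.0 and 84.7 in Mmp13-/- replicates 1, 2 and 6. The library with the most, replicate 6, was also the one with the most reads on sensory receptor genes.

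**Figure D4:**
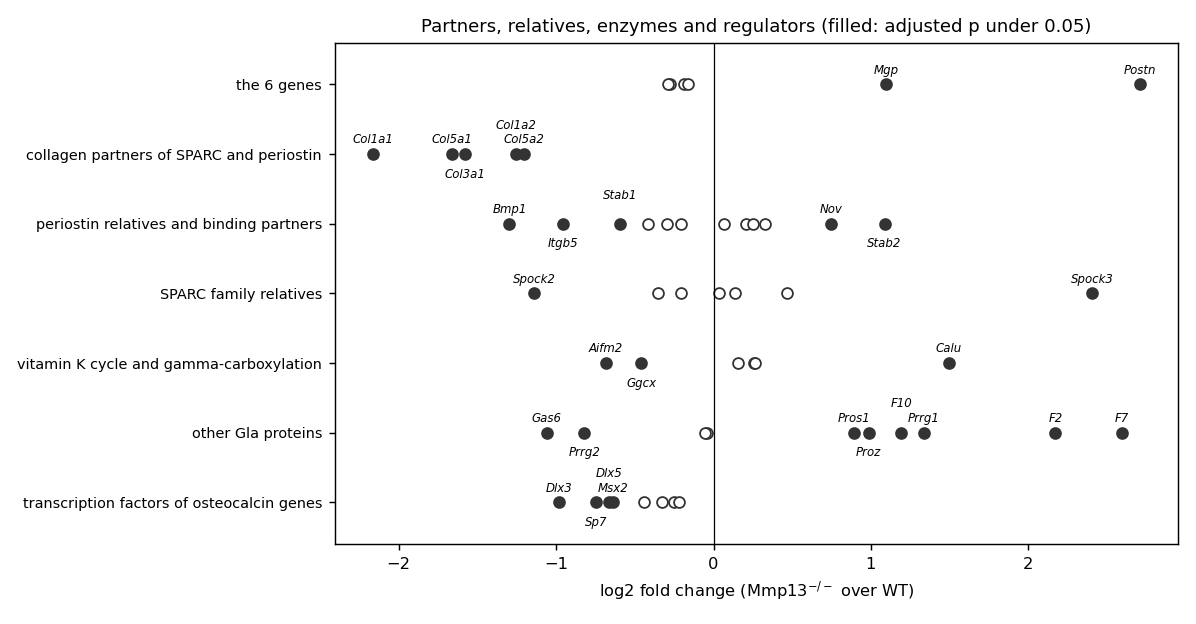
Log2 fold change of Mmp13-/- over WT (x axis) for the 6 genes and for lists of their partners, relatives, enzymes and regulators, 1 point a gene. Filled points passed at an adjusted p under 0.05 and carry the gene's name, open points did not, and Ucma and Gpr158, with at most 3 counts in every WT sample, are not drawn. F7, F2 and Spock3 are drawn, although they passed the filter on low counts only through the Mmp13-/- samples. The 5 collagen genes all lie below 0, on the opposite side from Postn and Mgp.

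Markers of other cells were also called in the same libraries. Beside the counts below, 27.3% of all tested genes were called higher in Mmp13-/- and 24.3% lower. Periodontal ligament and tendon markers rose for 3 of 4 genes and fell for 1, and their summed level was 22.2 to 30.9 CPM per kilobase in WT and 78.9 to 149 in Mmp13-/-. Among them Aspn, the asporin gene, had a log2 fold change of 3.80 and Mkx of 0.41, whereas Scx, the tendon transcription factor scleraxis, had -1.47. With the GC correction Aspn was at 1.39, and Mkx and Scx did not pass. Marrow neutrophil markers rose for 7 of 7 genes, from a summed level of 95.9 to 192 in WT to 918 to 2317 in Mmp13-/-, and 5 of 6 erythroid markers (12.3 to 21.8 in WT and 37.4 to 74.4 in Mmp13-/-) and 5 of 5 B cell markers (2.30 to 4.45 and 10.2 to 11.9) rose. Of 8 bone cell markers 2 rose and 3 fell, with summed levels of 344 to 484 and 308 to 417. Col11a2 and Alpl, with the highest levels on that list, fell with log2 fold changes of -1.40 and -0.68. Ibsp, the bone sialoprotein gene and next in level, rose with 1.56. Of 8 pulp fibroblast markers 3 rose and 3 fell, with summed levels of 471 to 538 and 557 to 748, and of 7 odontoblast markers 4 rose and 2 fell, with 262 to 525 and 475 to 701. Of the skeletal muscle markers 6 of 7 fell and none rose, of 7 mural markers 3 rose and 3 fell, of 6 endothelial markers 1 rose and 3 fell, of 5 tested chondrocyte markers 2 fell, and of 6 ameloblast markers 1 rose. Most of these falls were lost with the GC correction, in which 3 bone cell markers rose and 1 fell, 4 pulp fibroblast markers rose and 1 fell, 3 odontoblast, 4 mural and 2 endothelial markers rose and none fell, 5 skeletal muscle markers and 1 chondrocyte marker fell, and no ameloblast marker was called. The neutrophil and B cell counts stayed at 7 of 7 and 5 of 5 with the correction, and 6 of 6 erythroid markers rose. No marker on any of these lists was at 0 in all libraries. Their part in the differences of Postn, Mgp and the other genes was not tested.

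Across the 10794 tested genes with a mean log2 CPM of at least 3, the pattern of each gene over the 6 samples was compared by the distance between centred log2 CPM values. The nearest gene to Bglap was Bglap2, at a distance of 0.0701, and the reverse held. Those 2 genes share long runs of sequence, so the unknown division of shared reads may itself bring their counts together, which was not tested. Next came Ndufs8, a subunit gene of mitochondrial complex I, for both of them, and then Mpzl1 for Bglap and Cpm, the carboxypeptidase M gene, for Bglap2. Sparc lay nearest to Swap70 at 0.0635, followed by Smarcal1 and Zfp608. For Mgp the nearest were Ptprd, a receptor phosphatase gene, at 0.162, Gsap and Ccdc82. Postn had no gene as close, with Mmp8, the neutrophil collagenase gene, at 0.408, F13a1, the gene of the coagulation factor that cross-links fibrin, at 0.476, and Gm38211 at 0.489. Bglap3 also had no gene at a small distance, with Meis1 at 0.405 and Krt78 and Crct1 farther away. A large distance did not mean the same for both. Pearson correlations over the 6 samples with the 3 nearest genes were 0.993 to 0.995 for Postn and 0.937 to 0.991 for Bglap3. These distances rest on 6 libraries that share 2 genotypes, and small distances are easier to reach for genes that differ little between samples.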

How the data were processed

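Dental pulp RNA from 3 WT and 3 Mmp13-/- mice was sequenced as paired reads and, per the study's methods, analyzed in Strand NGS, and mm10 and DESeq are named in the submitters' processing notes. The authors deposited an estimated count for each gene, which can be a fraction, and a log2 value derived from it and centred on the gene's median. The aligner's settings and the handling of reads shared by paralogs are not given in the sources used here. Genes were matched by identifier to GENCODE M21 (GRCm38) for 99.8% of 53342 genes.

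After rounding, genotypes were compared by the quasi-likelihood test of edgeR 4.0.16 in R 4.3.3. Genes with few counts were filtered by genotype, libraries were scaled by TMM, no covariates entered, and p-values were adjusted over 24534 genes by the Benjamini-Hochberg method. Called means an adjusted p under 0.05, and over 2-fold a log2 fold change above 1 or below -1 as well. A normalized count is a count corrected for TMM-scaled library size and expressed for the mean library, and CPM per kilobase uses the longest annotated coding transcript. The SDs are the spread between these biological samples, whereas the edgeR errors combine that spread, moderated across genes, with counting error. The 6 genes and all lists were chosen with earlier results of these data known, so counts of list genes are descriptions. Some genes of these lists are not reported here. Named genes are the 6, the 3 nearest to each in pattern and at most 3 per list by CPM per kilobase, or all genes of a list of 9 or fewer direct partners, enzymes or regulators. The study tested gene by gene on log2 values. That procedure, with Storey's q, was an alternative here because counts were deposited. The others were RLE factors, upper-quartile factors, total counts, no filter, at least 10 counts in every sample, DESeq2 1.42.0, limma 3.58.1 on the log2 values, a GC correction (loess with span 0.4), subtraction of the background rate over 1410 sensory receptor genes, and each sample left out.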

Additional observations from a re-analysis of the deposited data

How the results depend on the processing

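No paired analysis was possible because the genotypes share only the replicate number 2. Postn and Mgp were called higher under all 16 alternatives, with log2 fold changes of 2.46 to 2.92 and 0.82 to 1.58, and Mgp was under 2-fold without a filter (0.99). Upper-quartile factors turned the sign of Bglap (0.010), Bglap2 (0.041) and the osteocalcin sum (0.020). They moved the median of all tested genes from 0.10 to 0.32, and relative to that median Bglap was at -0.30 and Postn at 2.61, against -0.29 and 2.61 with TMM factors. The GC correction turned Bglap (0.63), Bglap2 (0.71), the sum (0.65) and Sparc (0.28), where Sparc relative to the median was at -0.03. The study's gene-by-gene procedure called Sparc at -0.37 (q = 0.0352). Genes changed over 2-fold numbered 7381, and 14325 without a filter, 4666 with at least 10 counts in every sample, 15407 by the study's procedure and 4899 with the GC correction. The cause of these shifts was not tested.

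With each sample left out, log2 fold changes ranged from 2.49 to 2.76 for Postn, 0.82 to 1.17 for Mgp, -0.51 to -0.23 for Sparc, -0.36 to -0.05 for Bglap, -0.33 to -0.01 for Bglap2, -0.68 to 0.22 for Bglap3 and -0.34 to -0.04 for the sum. Bglap3 was at 0.22 without WT replicate 5 and at 7.5e-05 without Mmp13-/- replicate 2. The Bglap share differed by -0.810 to -0.306 points, and 7146 to 8751 genes changed over 2-fold. Of 304 recomputed list counts, 267 stayed within 1.5 times the count reported and 37 did not.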
